A study of Mus musculus with 30 samples.

Results

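The 8 genes described here, Mrc1, Cd163, Lyve1, Stab1, Ms4a7, Cbr2, Pf4 and F13a1, are markers of border macrophages, and were taken by symbol from a mouse table of 24062 genes with a symbol of their own. All 8 are in the table, and all 8 were among the 11759 genes tested. They were read in 30 RNA-seq libraries of CD11b-selected cells, which the labels call microglia, from the lumbar spinal cord of C57BL/6J mice. Values are FPKM, which scale the fragments of a gene by its transcript length and by library depth.

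Sciatic nerve transection (SNT) was sampled at 1, 2, 4 and 7 days after injury, chronic constriction injury (CCI) at 2 and 7 days and spared nerve injury (SNI) at 7 days, with 2 libraries in each of these 7 groups. The opioid morphine was dosed by a fixed schedule in 4 libraries and by an escalating schedule in 3. Saline was given in the fixed (4 libraries) or the escalating (3 libraries) series, and 2 libraries came from naive mice with no treatment or injury. All groups shared that strain and went through the same perfusion with cold saline buffer, myelin removal and CD11b selection. Doses, ages and the number of animals behind a library are not given in the sources used here, so p-values here speak only to how much these libraries scatter.

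Border macrophages live in the meninges, the perivascular spaces and the choroid plexus, outside the parenchyma that microglia occupy. They carry CD11b, so a CD11b selection from dissociated cord can hold them beside microglia, monocytes and neutrophils. In adult mice they express scavenger and endocytic receptors that microglia express little of, and some of their markers, F13a1 and Pf4 among them, are shared with monocytes or with megakaryocytes and platelets.

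Microglial markers were high in every library. P2ry12, a purinergic receptor of microglia, ranged from 562 to 1550 FPKM over the 30 libraries, and Cx3cr1, the fractalkine receptor, from 345 to 1439 FPKM. The 8 border macrophage genes summed to 37.9 to 99.8 FPKM per library, and 12 microglial markers to 8061 to 18593 FPKM. Without Stab1 and F13a1 the border macrophage sum was 2.11 to 36.6 FPKM. Estimated depth ran from 1741000 to 21445000 fragments per library. The libraries SNT day 1 replicate 1, SNT day 7 replicate 1 and SNT day 2 replicate 2 stood apart with 8005, 8466 and 8763 genes at 1 FPKM or more, and results that rest on them are given with and without them. In bulk RNA, fewer cells of a type and less RNA per cell cannot be told apart.

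Among the scavenger receptors, Stab1 was by far the most abundant. Stab1 encodes stabilin-1, an endocytic receptor for acetylated lipoproteins and other ligands, and lies at chr14:31139013-31168641 on the minus strand of GRCm38. It averaged 36.5 FPKM over 30 libraries, more than 88.0% of the tested genes, and ranged from 18.9 FPKM in escalating saline replicate 9 to 58.9 FPKM in fixed saline replicate 3. It made up 28.7% to 85.2% of the summed FPKM of the 8 genes. F13a1 made up 0.0727% to 53.6%, Mrc1 at most 3.98% and Cd163 at most 2.97%. Which cells the Stab1 RNA came from was not tested. No library was without it, and its estimated fragments ran from 567 to 8865 per library.

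Mrc1 encodes the mannose receptor CD206, and lies at chr2:14229392-14332057 on the plus strand. It averaged 0.825 FPKM over all libraries, reached 1 FPKM in 10 of 30 and peaked at 2.16 FPKM in escalating saline replicate 7. Cd163, the receptor for haemoglobin and haptoglobin complexes at chr6:124304656-124330527 on the plus strand, averaged 0.492 FPKM, was listed at 0 in 3 libraries and peaked at 1.95 FPKM in escalating saline replicate 9. Both defining receptors of the cell type were therefore among the low genes of those tested: 11.004% of tested genes had a lower mean than Mrc1, and 5.26% a lower mean than Cd163. The length used for each gene was fitted to make its low values whole multiples of the value of 1 fragment. They were so within 0.1 in 100% of 6 cases for Mrc1 and 93.3% of 15 cases for Cd163. These shares are what the fit maximised, so they are no check of it. Median estimated fragments were 21.4 per library for Mrc1 and 9.58 for Cd163.

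Lyve1, a hyaluronan receptor at chr7:110850607-110863239 on the minus strand, averaged 0.656 FPKM. It had a median of 0.207 FPKM, was listed at 0 in 4 libraries and stood at 7.11 FPKM, 129 estimated fragments, in SNT day 7 replicate 1. The next highest library, escalating saline replicate 9, had 2.99 FPKM.

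The other members are a membrane protein, an enzyme, a chemokine and a clotting factor. Ms4a7, a member of the membrane-spanning 4A family at chr19:11321039-11336146 on the minus strand, was the lowest, with a mean of 0.266 FPKM, 10 libraries listed at 0 and a highest value of 1.35 FPKM in SNT day 2 replicate 1. Its median was 2.05 estimated fragments per library, too few for a small difference to be detectable at this depth. Cbr2, a carbonyl reductase at chr11:120729489-120732114 on the minus strand, averaged 3.15 FPKM and ranged from 0 in SNT day 7 replicate 1 and fixed saline replicate 5 to 11.5 FPKM in SNT day 1 replicate 1. F13a1, the A chain of coagulation factor XIII at chr13:36867178-37050244 on the minus strand, averaged 13.2 FPKM and ranged from 0.0353 FPKM in SNT day 1 replicate 1 to 53.5 FPKM in fixed morphine replicate 4. Pf4, the chemokine platelet factor 4 at chr5:90772435-90773383 on the plus strand, averaged 5.20 FPKM and ranged from a listed 0 in fixed morphine replicate 4 to 29.3 FPKM in SNT day 7 replicate 1.

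The group means of each gene could be put in order, but most neighbours in that order overlapped. Of 11 neighbouring pairs of groups, the libraries overlapped in 11 pairs each for Mrc1, Cd163, Lyve1, Stab1 and Cbr2, in 10 pairs each for Ms4a7 and F13a1, and in 9 pairs for Pf4. For Pf4 the breaks fell between SNT day 1 and escalating saline, and, at the bottom, between CCI day 2 and fixed morphine. For F13a1 the break set SNT day 1, the lowest group, below SNT day 2.

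**Figure D1:**
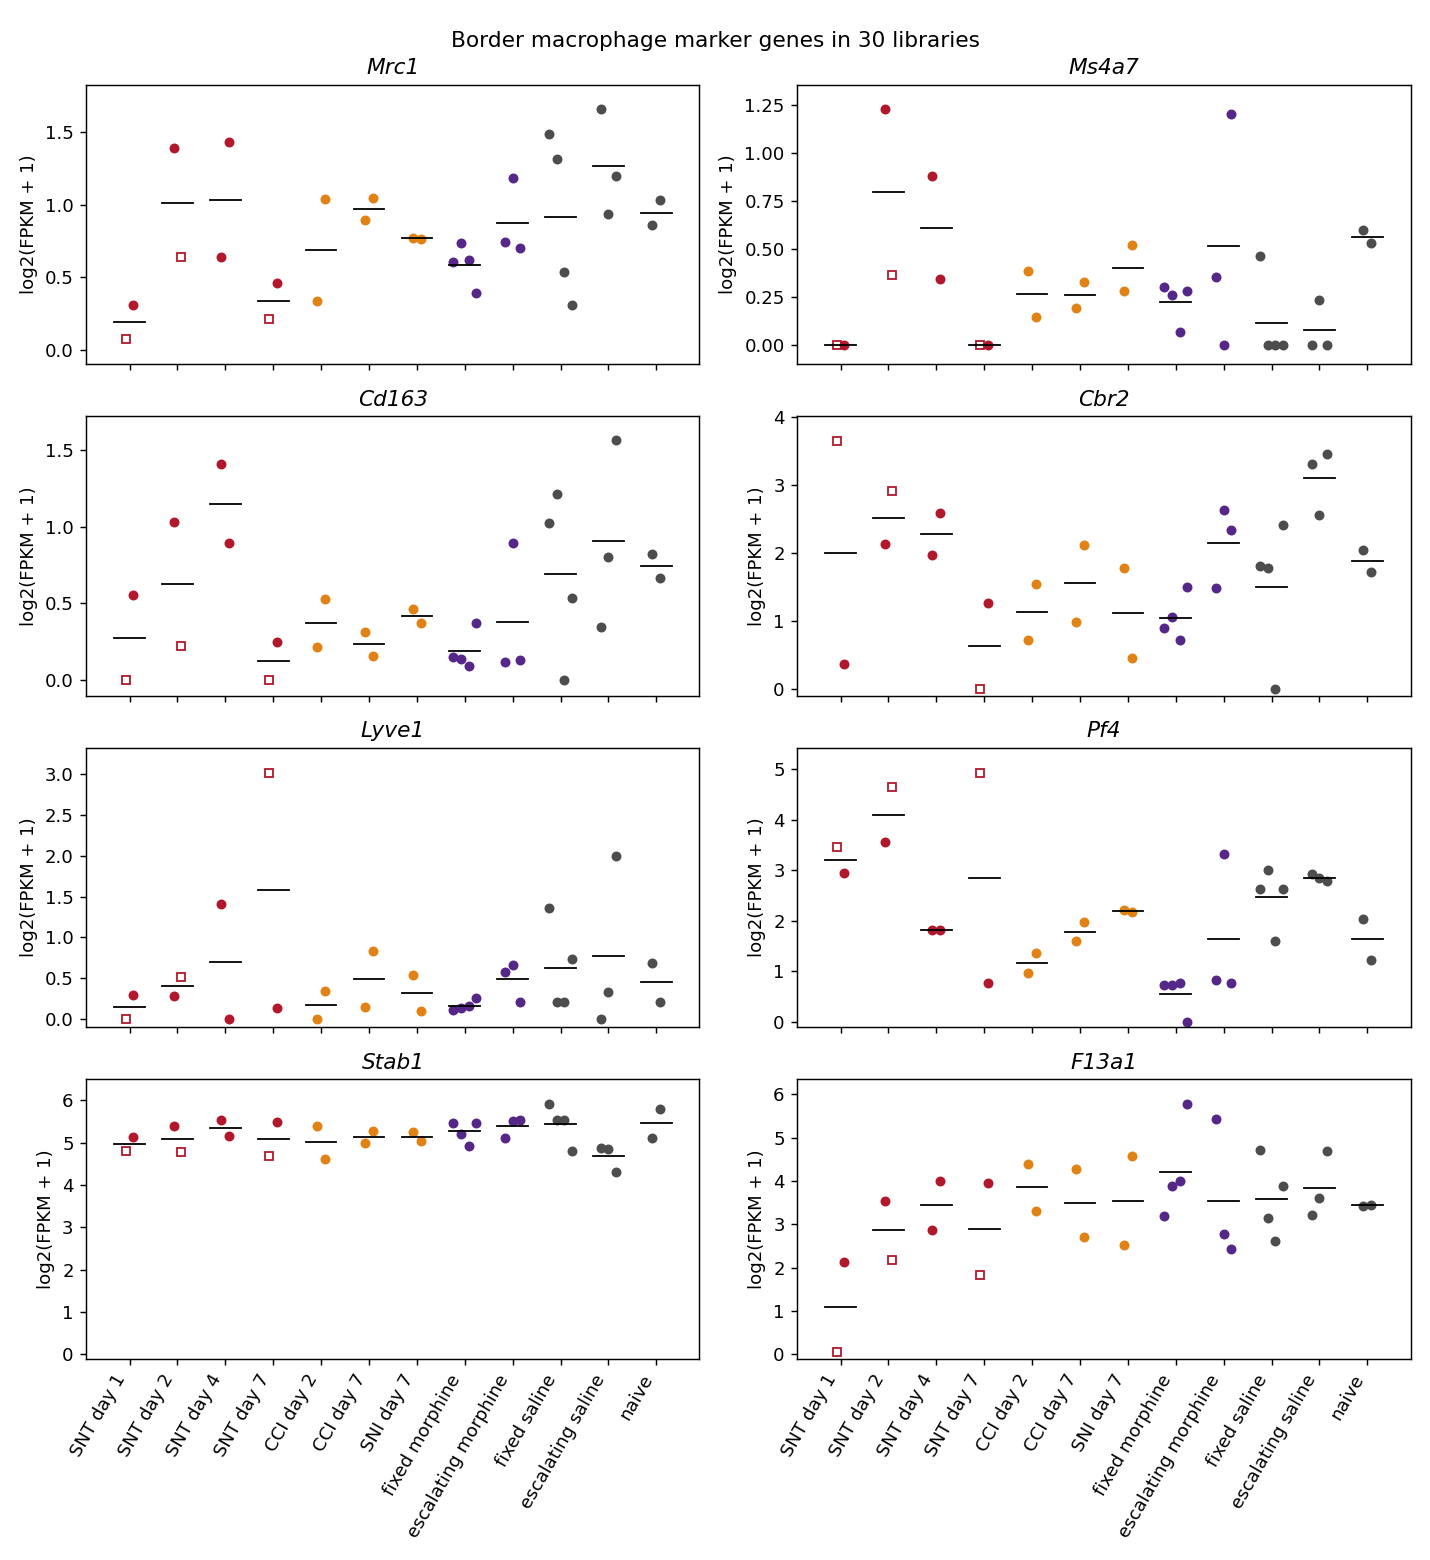
log2(FPKM + 1) of each gene (vertical axes, a different scale in each panel) in 30 libraries of 12 groups (horizontal axis). Each point is a library, open squares are the 3 libraries with few genes, and lines are group means of the plotted values. Stab1 is at 18.9 FPKM or more in every library, while Ms4a7 is listed at 0 in 10 of 30. The Lyve1 value of 7.11 FPKM and the Pf4 value of 29.3 FPKM are both from SNT day 7 replicate 1.

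The promoters of 3 members are given, Pf4 because it is the member whose level differed past the threshold, and Mrc1 and Cd163 because their levels varied together. They are RefSeq sequences on GRCm38.p6, each 300 bases around the annotated start and written along the gene's strand, at chr5:90772185-90772484 (plus), chr2:14229164-14229463 (plus) and chr6:124304401-124304700 (plus). Capitals mark matches to GAGGAA, the core letters of PU.1 sites, on either strand (TTCCTC on the other).

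Pf4: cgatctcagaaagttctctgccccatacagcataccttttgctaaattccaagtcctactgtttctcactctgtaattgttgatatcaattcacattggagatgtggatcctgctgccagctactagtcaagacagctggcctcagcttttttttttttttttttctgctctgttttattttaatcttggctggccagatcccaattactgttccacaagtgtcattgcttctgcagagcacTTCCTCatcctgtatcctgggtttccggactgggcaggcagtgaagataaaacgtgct

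Mrc1: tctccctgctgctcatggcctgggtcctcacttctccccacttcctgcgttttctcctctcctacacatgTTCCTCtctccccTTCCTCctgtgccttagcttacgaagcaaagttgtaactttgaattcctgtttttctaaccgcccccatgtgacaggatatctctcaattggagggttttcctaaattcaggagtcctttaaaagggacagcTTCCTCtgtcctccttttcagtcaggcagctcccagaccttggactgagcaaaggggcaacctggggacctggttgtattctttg

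Cd163: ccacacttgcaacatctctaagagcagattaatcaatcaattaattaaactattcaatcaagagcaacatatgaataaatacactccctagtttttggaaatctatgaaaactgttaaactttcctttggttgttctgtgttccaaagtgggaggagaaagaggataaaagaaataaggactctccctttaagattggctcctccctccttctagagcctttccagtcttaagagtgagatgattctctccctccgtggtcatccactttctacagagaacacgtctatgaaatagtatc

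The Pf4 window held 1 match, the Mrc1 window 3 and the Cd163 window 0. RefSeq windows matched 7 of the 8 members by symbol, 9 windows in all since F13a1 and Ms4a7 have 2 each, and 7 of these 9 held GAGGAA, against 28.3% of all 32851 windows. A MAF half-site, TGCTGA on either strand (TCAGCA on the other), was in 2 of the 9, those of Stab1 and Cbr2, against 19.5% of all windows, and no match of one motif overlapped a match of the other. A match is a description of letters and not of binding.

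After nerve transection none of the 8 genes differed from the 9 pooled controls past the threshold on any day, an adjusted p under 0.05 in limma over all 11759 genes. Values were log2(FPKM + 1), and differences are injury minus control on that scale, which understates the change of low genes. At day 1, 0 of 8 were called, against 0.0170% of all tested genes, and 2 of 8 had an unadjusted p under 0.05. At day 2 the figures were 0 of 8, against 0% of all genes, with 2 of 8 under an unadjusted 0.05. At day 4 they were 0 of 8 against 0%, with 0 under an unadjusted 0.05, and at day 7 they were 0 of 8 against 0.204%, also with 0. Over the mean of the 4 SNT groups 0 of 8 were called, against 0% of all genes, and 1 of 8 had an unadjusted p under 0.05.

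F13a1 was lowest at day 1. It stood at 0.0353 and 3.37 FPKM in the 2 SNT day 1 libraries, against a lowest value of 5.17, a median of 9.97 and a highest of 25.4 FPKM in the 9 controls. Both day 1 libraries lay under every control. The log2 difference was -2.55 ± 0.66 (SE, adjusted p = 0.130 in limma). It was -1.51 (adjusted p = 1.00) without SNT day 1 replicate 1, and -3.59 (adjusted p = 0.00986) without SNT day 1 replicate 2. Monocyte markers moved with it: 7 of them, Ccr2 and Ly6c2 included, summed to 5.03 FPKM with 4 of 7 listed at 0 in SNT day 1 replicate 1, and to 281 FPKM in replicate 2, against 289 to 2538 FPKM in the controls. Their part in the result was not tested.

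On later days F13a1 overlapped the controls. It had 10.7 and 3.53 FPKM at SNT day 2, 6.35 and 14.9 FPKM at day 4, and 2.57 and 14.4 FPKM at day 7. At days 2 and 7 one library lay within the control range and the other under it, and at day 4 both lay within it. Over the mean of the 4 SNT groups the F13a1 difference was -1.07 ± 0.41 (SE, adjusted p = 0.647 in limma).

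Pf4 was high in some transection libraries and not in others. It had 9.98 and 6.68 FPKM at SNT day 1, 10.7 and 23.9 FPKM at day 2, 2.54 and 2.53 FPKM at day 4, and 29.3 and 0.7095 FPKM at day 7, against a lowest of 1.35, a median of 5.17 and a highest of 7.07 FPKM in the 9 controls. Both day 2 libraries lay above every control, both day 4 libraries lay within the control range, and the day 7 libraries lay on either side of it. The log2 difference was 1.69 ± 0.65 at day 2 (SE, adjusted p = 0.670 in limma) and 0.44 ± 0.65 at day 7 (adjusted p = 0.871). At day 2 it was 1.14 (adjusted p = 1.00) without the 3 libraries with few genes, and at day 7 it turned to -1.64 (adjusted p = 0.273). The 2 highest Pf4 values of the series, 29.3 and 23.9 FPKM, were in libraries with few genes.

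Lyve1 at day 7 rested on the same library. It had 7.11 and 0.0960 FPKM in the 2 SNT day 7 libraries, against a lowest listed value of 0, a median of 0.261 and a highest of 2.99 FPKM in the controls. One library lay above every control and the other among the low ones. The difference was 0.94 ± 0.54 (SE, adjusted p = 0.624 in limma) with both, -0.51 (adjusted p = 0.753) without replicate 1, and 2.38 (adjusted p = 0.0142) without replicate 2, where Pf4 was also called at 2.51 (adjusted p = 0.0108).

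The mannose receptor gene was lowest on the first and last days, without passing the threshold. Mrc1 had 0.0513 and 0.2401 FPKM at SNT day 1, 1.62 and 0.556 FPKM at day 2, 0.561 and 1.70 FPKM at day 4, and 0.161 and 0.377 FPKM at day 7, against a lowest of 0.241, a median of 1.04 and a highest of 2.16 FPKM in the controls. One day 1 library lay far under the control range and the other just under its lowest value, and at day 7 one library lay under the range and the other in its low end. The log2 differences were -0.85 ± 0.34 at day 1 (SE, adjusted p = 0.232 in limma) and -0.70 ± 0.34 at day 7 (adjusted p = 0.565). The lower library of each of these days, replicate 1, is among the 3 with few genes. Its Mrc1 value stood for 1.99 estimated fragments at day 1 and 5.97 at day 7. Without it, 1 library is left on each day, at 0.2401 and 0.377 FPKM.

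For the remaining 4 members there was no day on which both transection libraries left the control range. For Cd163, Ms4a7 and Cbr2 that range starts at a listed 0, so no value could lie under it. Ms4a7 had 1.35 and 0.289 FPKM at SNT day 2, against a highest control value of 0.513 FPKM, with a log2 difference of 0.60 ± 0.25 (SE, adjusted p = 0.670 in limma), and was listed at 0 in all 4 libraries of days 1 and 7. The day 2 values stood for 3.07 and 1.024 estimated fragments. Cbr2 had 11.5 and 0.289 FPKM at day 1, 3.38 and 6.52 FPKM at day 2, 2.92 and 5.03 FPKM at day 4, and a listed 0 and 1.39 FPKM at day 7, against 0 to 9.98 FPKM in the controls. At day 7 the Cbr2 difference was -1.49 ± 0.73 (SE, adjusted p = 0.569 in limma). Cd163 ran from a listed 0 to 1.65 FPKM over the SNT libraries, with a listed 0 and 0.189 FPKM at day 7. Its day 7 difference was -0.65 ± 0.33 (adjusted p = 0.583). For both genes the listed 0 at day 7 is in replicate 1, a library with few genes. Stab1 ranged from 24.7 to 45.1 FPKM over the 8 SNT libraries, within the control range of 18.9 to 58.9 FPKM.

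After partial nerve injury none of the 8 genes differed from the controls past the threshold either. At CCI day 2, 0 of 8 were called, against 0.00850% of all tested genes in limma, at CCI day 7 0 of 8, against 0%, and at SNI day 7 0 of 8, against 0%, with 0 of 8 under an unadjusted p of 0.05 in each. Over the mean of the 3 groups 0 of 8 were called, against 1.83% of all genes, and 0 of 8 had an unadjusted p under 0.05. The median difference of the 8 was -0.27 with 1 of 8 positive, beside a median of 0.11 with 60.01% positive over all tested genes.

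Pf4 and Cd163 lay low in these libraries without passing the threshold. Pf4 had 0.971 and 1.59 FPKM at CCI day 2, 2.02 and 2.91 FPKM at CCI day 7, and 3.62 and 3.49 FPKM at SNI day 7. One CCI day 2 library lay under the control range of 1.35 to 7.07 FPKM and the others within it, and all 6 lay under the control median of 5.17 FPKM. The log2 difference over the 3 groups was -0.69 ± 0.44 for Pf4 (SE, adjusted p = 0.384 in limma) and -0.43 ± 0.22 for Cd163 (adjusted p = 0.283). Weighting the libraries by their scatter moved both over the threshold, at -0.77 (adjusted p = 0.0436) for Pf4 and -0.47 (adjusted p = 0.0487) for Cd163. Against the naive controls alone the differences were 0.079 (adjusted p = 1.00) for Pf4, a change of sign, and -0.40 (adjusted p = 1.00) for Cd163. Cd163 had 0.163 and 0.444 FPKM at CCI day 2, 0.245 and 0.117 FPKM at CCI day 7, and 0.382 and 0.296 FPKM at SNI day 7, against a lowest listed value of 0, a median of 0.745 and a highest of 1.95 FPKM in the controls.

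Cbr2 had the largest difference of the 8 over the 3 groups, at -0.85 ± 0.49 on the log2 scale (SE, adjusted p = 0.336 in limma). It ranged from 0.365 to 3.36 FPKM over the 6 libraries, against 0 to 9.98 FPKM over the 9 controls, so the groups overlapped. F13a1 had 19.9 and 8.97 FPKM at CCI day 2, 18.3 and 5.57 FPKM at CCI day 7, and 4.76 and 22.7 FPKM at SNI day 7, with 1 high and 1 low library in each group. Its difference over the 3 groups was -0.01 ± 0.45. Mrc1 ranged from 0.261 to 1.06 FPKM, Lyve1 from 0 to 0.789 FPKM, Ms4a7 from 0.105 to 0.437 FPKM and Stab1 from 23.5 to 41.4 FPKM in the 6 libraries.

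Set directly against transection, partial injury gave the lowest adjusted p of any injury comparison for Pf4, and it missed the threshold. Over the 6 CCI and SNI libraries Pf4 had a lowest value of 0.971, a median of 2.47 and a highest of 3.62 FPKM, and over the 8 SNT libraries a lowest of 0.7095, a median of 8.33 and a highest of 29.3 FPKM. The groups overlapped through SNT days 4 and 7. In limma 0 of 8 members were called, against 14.5% of all tested genes, and 2 of 8 had an unadjusted p under 0.05. The log2 difference, CCI and SNI minus SNT, was -1.28 ± 0.45 for Pf4 (SE, adjusted p = 0.0564) and 1.06 ± 0.46 for F13a1 (adjusted p = 0.105).

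The share of all genes called in that comparison rested on the 3 libraries with few genes, and the Pf4 difference leaned on them too. Without them 2 of 11759 genes were called in place of 1707, and the log2 difference was -0.56 ± 0.32 for Pf4 (SE, adjusted p = 0.425 in limma) and 0.37 (adjusted p = 0.741) for F13a1. Without SNT day 7 replicate 2, which has the lowest SNT value of Pf4, the difference was -1.79 (adjusted p = 0.000605) for Pf4 and 1.32 (adjusted p = 0.0271) for F13a1. Pf4 was also called without SNT day 2 replicate 1, at -1.41 (adjusted p = 0.0310), and F13a1 without SNT day 1 replicate 2, at 1.32 (adjusted p = 0.0478).

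Transcript length ran with the direction in that comparison. Pf4 has a longest annotated transcript of 588 bases, and of 274 tested genes with a longest transcript of 400 to 800 bases, 59 were called lower and 1 higher, with a median log2 difference of -0.61. Of the 11318 tested genes with a length, 388 were called lower and 1250 higher, with a median of 0.24. The part of transcript length in the Pf4 difference was not tested.

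**Figure D2:**
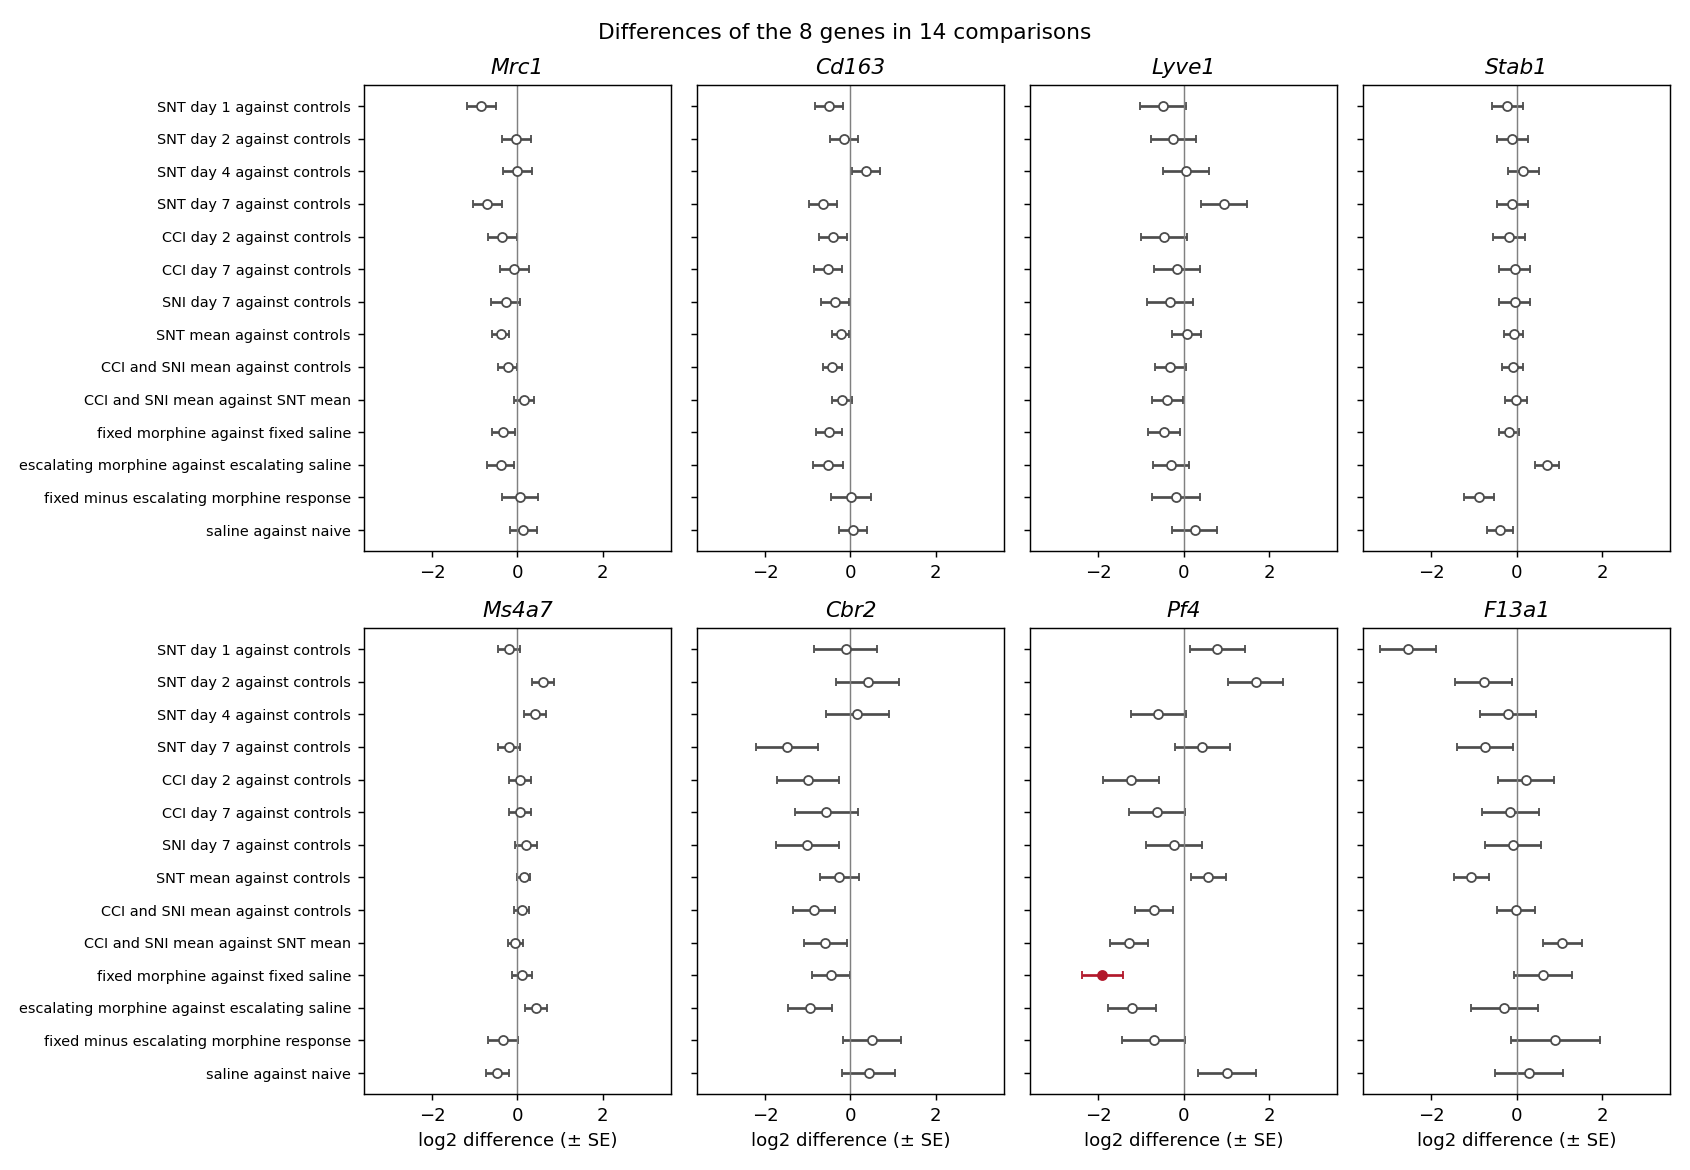
Log2 difference of each gene (horizontal axes, first-named group minus the second, on the log2(FPKM + 1) scale) in 14 comparisons (vertical axis), with bars of 1 SE from limma. A filled red point has an adjusted p under 0.05 over 11759 genes, and open points do not. The filled point is Pf4 under fixed morphine, at -1.91.

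Pf4 was lower under fixed morphine than in fixed saline. It had 0.670, 0.658, 0.708 and a listed 0 FPKM in the 4 fixed morphine libraries, against 5.17, 7.07, 2.04 and 5.15 FPKM in the 4 fixed saline libraries. Every fixed morphine library lay under every fixed saline library. The 2 naive libraries had 3.11 and 1.35 FPKM, above every fixed morphine library. Naive replicate 1 lay within the fixed saline range, and naive replicate 2 lay under it. The log2 difference was -1.91 ± 0.48 (SE, adjusted p = 0.0185 in limma), beside a median of 0.22 over all tested genes. In all, 1 of 8 members was called, against 18.0% of all tested genes in either direction and 4.46% in the lower direction, and 1 of 8 had an unadjusted p under 0.05.

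The difference rested on few fragments. The fixed morphine values stood for 4.00, 6.00, 7.005 and 0 estimated fragments, in libraries of 10158000 to 16814000 fragments, and the fixed saline values for 6.00, 10.01, 6.00 and 26.0, in libraries of 1972000 to 8587000 fragments. In fixed morphine replicate 4, where Pf4 is listed at 0, 3 fragments would be 0.367 FPKM. The depths of the 2 groups did not overlap, and the deeper libraries had the lower level. The difference was called with each library left out in turn, at -2.19 to -1.72, except without fixed saline replicate 6, where it was -1.85 (adjusted p = 0.0520).

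Other measures were read in the same comparison. Of the 274 short genes named above, 46, or 16.8%, were called lower and 2 higher under fixed morphine, with a median of -0.52, against 4.37% called lower and a median of 0.22 over the 11318 genes with a length. Platelet markers, 8 in the list, summed to 28.4 to 39.98 FPKM in fixed morphine and 44.5 to 93.3 FPKM in fixed saline, a sum made up mostly of Gp9 and Itgb3. Among the rest of that list, Gp6 was listed at 0 in all 30 libraries, Gp1bb in 28 and Ppbp in 25. Itga2b did not pass 0.297 FPKM, while Treml1 reached 2.11 FPKM, in escalating saline replicate 9. Neutrophil markers were also lower than in fixed saline. Of 10, 2 were called lower, S100a8 at -3.14 (adjusted p = 0.0176 in limma) and Camp at -2.41 (adjusted p = 0.0442). None of the markers was higher, and their median difference was -1.83. They summed to 1822 to 18643 FPKM in fixed morphine and 7334 to 28796 FPKM in fixed saline. Of 6 tested monocyte markers none was called, 2 were positive and the median was -1.31, with sums of 107 to 1589 FPKM in fixed morphine and 289 to 1458 FPKM in fixed saline. The part of transcript length, of depth and of these other cells in the Pf4 result was not tested.

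Of the platelet list 3 genes were tested, and 2 of them were called, in opposite directions. Gp9, a subunit of the platelet von Willebrand factor receptor, had 21.0, 19.5, 15.5 and 11.5 FPKM in fixed morphine, against 33.1, 50.8, 87.2 and 63.9 FPKM in fixed saline, with a log2 difference of -1.69 ± 0.32 (SE, adjusted p = 0.00663 in limma). Every fixed morphine library was lower. Itgb3, the integrin beta 3 chain, ranged from 12.6 to 19.8 FPKM in fixed morphine and from 5.26 to 10.3 FPKM in fixed saline, with a difference of 1.14 ± 0.28 (adjusted p = 0.0177). The 2 naive libraries had 18.0 and 16.0 FPKM of Gp9, under every fixed saline library. They had 10.8 and 13.7 FPKM of Itgb3, above every fixed saline library.

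The receptors were not called under fixed morphine, though their highest values were all in fixed saline. Mrc1 had 0.518, 0.667, 0.537 and 0.311 FPKM in fixed morphine, against 1.81, 1.49, 0.452 and 0.241 FPKM in fixed saline. Cd163 had 0.112, 0.102, 0.0674 and 0.294 FPKM in fixed morphine, against 1.03, 1.32, a listed 0 and 0.449 FPKM in fixed saline. For both receptors the fixed saline libraries split into 2 high and 2 low, and the low ones overlapped with fixed morphine. The log2 differences were -0.33 ± 0.27 for Mrc1 (SE, adjusted p = 0.418 in limma), -0.50 ± 0.31 for Cd163 (adjusted p = 0.260) and -0.47 ± 0.37 for Lyve1 (adjusted p = 0.394).

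F13a1 went the other way from Pf4 without passing the threshold. It had 8.13, 13.7, 15.0 and 53.5 FPKM in fixed morphine, against 25.4, 7.83, 5.17 and 13.8 FPKM in fixed saline, with a log2 difference of 0.61 ± 0.69 (SE, adjusted p = 0.557 in limma). Its highest value of the series was in fixed morphine replicate 4, where monocyte markers summed to 1589 FPKM, and Pf4 was listed at 0. Stab1 ranged from 29.3 to 43.4 FPKM in fixed morphine and from 27.0 to 58.9 FPKM in fixed saline, with a difference of -0.18 ± 0.24. Cbr2 ranged from 0.641 to 1.83 FPKM in fixed morphine and from a listed 0 to 4.33 FPKM in fixed saline, with a difference of -0.46 ± 0.44. The 8 differences had a median of -0.39, with 2 of 8 positive, beside 63.7% positive over all tested genes.

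Under escalating morphine none of the 8 was called, against 0.0340% of all tested genes, and 2 of 8 had an unadjusted p under 0.05 in limma. Pf4 had 0.785, 8.99 and 0.707 FPKM in the 3 escalating morphine libraries, against 6.60, 6.17 and 5.87 FPKM in the 3 escalating saline libraries. Replicates 1 and 3 lay under all the saline libraries, and replicate 2 lay above them. The log2 difference was -1.21 ± 0.56 (SE, adjusted p = 0.255), and -2.05 ± 0.38 (adjusted p = 0.111) without escalating morphine replicate 2. It was -0.80 (adjusted p = 0.598) without replicate 1, -0.77 (adjusted p = 0.491) without replicate 3, and -0.28 (adjusted p = 0.899) with the libraries weighted by their scatter. Escalating morphine replicates 1 and 2 stood for 5.00 and 14.01 estimated fragments, and replicate 3, a library of 2407000 fragments in which 3 would be 2.12 FPKM, for 1.00.

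Stab1 was the other gene with a low unadjusted p. It had 33.5, 44.6 and 45.5 FPKM in escalating morphine, against 28.2, 27.8 and 18.9 FPKM in escalating saline, with a log2 difference of 0.71 ± 0.27 (SE, adjusted p = 0.189 in limma). Every escalating morphine library lay above every escalating saline library. The escalating saline libraries were also the lowest control libraries for this gene apart from 1 fixed saline library, at 27.0 FPKM. For Cbr2 they were the highest, at 8.91, 4.88 and 9.98 FPKM, against 1.81, 5.18 and 4.07 FPKM in escalating morphine, and the difference was -0.95 ± 0.51 (adjusted p = 0.329).

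The fixed and escalating responses were also compared with each other. For the difference of the 2 responses, fixed minus escalating, 0 of 8 members were called, against 0.00850% of all tested genes in limma, and 1 of 8 had an unadjusted p under 0.05. It was -0.89 ± 0.36 for Stab1 (SE, adjusted p = 0.371), the member with that low unadjusted p, and -0.70 ± 0.74 for Pf4 (adjusted p = 0.736). The Pf4 call under fixed morphine was thus not shown to differ from the escalating response.

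**Figure D3:**
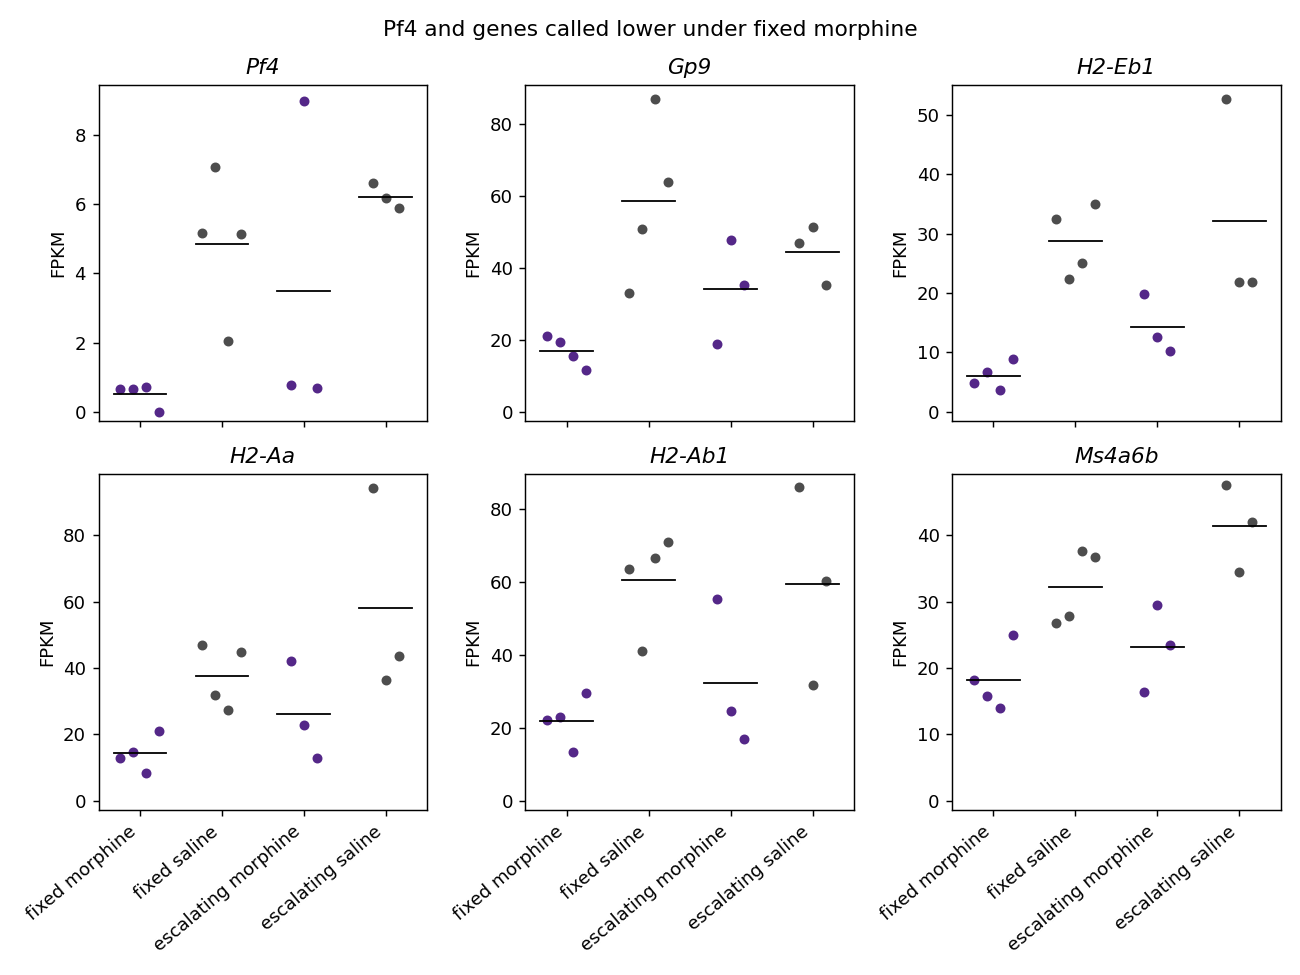
FPKM (vertical axes, with 0 included) of Pf4, Gp9 and 4 other genes called lower under fixed morphine, in the morphine and saline libraries of both regimens. Points are libraries and lines are group means. All 4 fixed morphine libraries of Pf4, at 0 to 0.708 FPKM, lie under the 4 fixed saline libraries, at 2.04 to 7.07 FPKM, while escalating morphine has 1 library at 8.99 FPKM.

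Between the kinds of control no member passed the threshold. For saline against naive 0 of 8 were called, against 0.604% of all tested genes in limma, and 0 of 8 had an unadjusted p under 0.05. For the 3 kinds of control together, in an F-test, 0 of 8 were called, against 0.102%, and 2 of 8, Stab1 and Cbr2, had unadjusted p-values of 0.0277 and 0.0391. The largest difference of saline from naive was that of Pf4, at 1.022 ± 0.68 (SE, adjusted p = 0.577). Pf4 had a lowest value of 2.04, a median of 5.87 and a highest of 7.07 FPKM in the 7 saline libraries, against 3.11 and 1.35 FPKM in the 2 naive libraries.

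The 8 genes were weakly correlated with each other. Over the 30 libraries their log2 values gave 28 pairwise correlations, of which 18 were positive, with a median Pearson r of 0.12 and, after centring each group on its own mean, of 0.08. Mrc1 and Cd163 had the highest, at r = 0.565 (permutation p = 0.00120, adjusted over 28 pairs 0.0330) and Spearman rho = 0.601 (permutation p = 0.000660, adjusted 0.0185). This was the pair that passed by both measures. Without the 2 libraries farthest from the Mrc1 median r was 0.622, after centring the groups 0.386, and without the 3 libraries with few genes 0.490.

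Pf4 and F13a1 ran against each other. Their r was -0.534 (permutation p = 0.00236, adjusted 0.0330) and rho -0.449 (permutation p = 0.0137, adjusted 0.128), so the pair passed by Pearson's measure and not by Spearman's. After centring the groups r was -0.454, without the 2 libraries farthest from the Pf4 median -0.441, and without the 3 libraries with few genes -0.337. Each of the other 26 pairs missed the threshold, with Pf4 and Lyve1 nearest at r = 0.468 (permutation p = 0.00856, adjusted 0.0799), which fell to 0.203 without the 2 libraries farthest from the Lyve1 median. The genes of a library share its depth and its number of detected genes.

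F13a1 rose and fell with monocyte markers, in relations chosen after the data had been seen. Its r with the mean log2 level of 6 tested monocyte markers was 0.787 (permutation p = 3.00e-05, adjusted over 64 relations of 8 genes and 8 lists 0.00192) and rho 0.629 (permutation p = 0.000370, adjusted 0.0118). It remained at 0.654 without the 2 libraries farthest from the median of the list and at 0.794 after centring the groups. Its relation with 4 tested dendritic cell markers also passed by both measures, at r = 0.589 (permutation p = 0.000760, adjusted 0.0162) and rho = 0.654 (permutation p = 0.000170, adjusted 0.0109). No other of the 64 relations passed by both. By Pearson's r alone, Lyve1 passed with the other border macrophage genes at 0.680 (permutation, adjusted p = 0.00288), with rho at 0.442 (adjusted p = 0.234) and r at 0.408 without the 2 farthest libraries. F13a1 passed by r alone with 4 endothelial markers at 0.540 (permutation, adjusted p = 0.0320) and with 10 neutrophil markers at 0.520 (permutation, adjusted p = 0.0422), with adjusted p-values of 0.186 and 0.329 for rho. Pf4 had r = 0.264 with the 3 tested platelet markers (permutation p = 0.1602, rho = 0.377). Its r was 0.082 with the 10 neutrophil markers and -0.158 with the 6 monocyte markers. Stab1 had its highest r of the 8 lists with 12 microglial markers, at 0.430 (permutation, adjusted p = 0.158). With the mean of the other members' standardised profiles its r was -0.044.

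**Figure D4:**
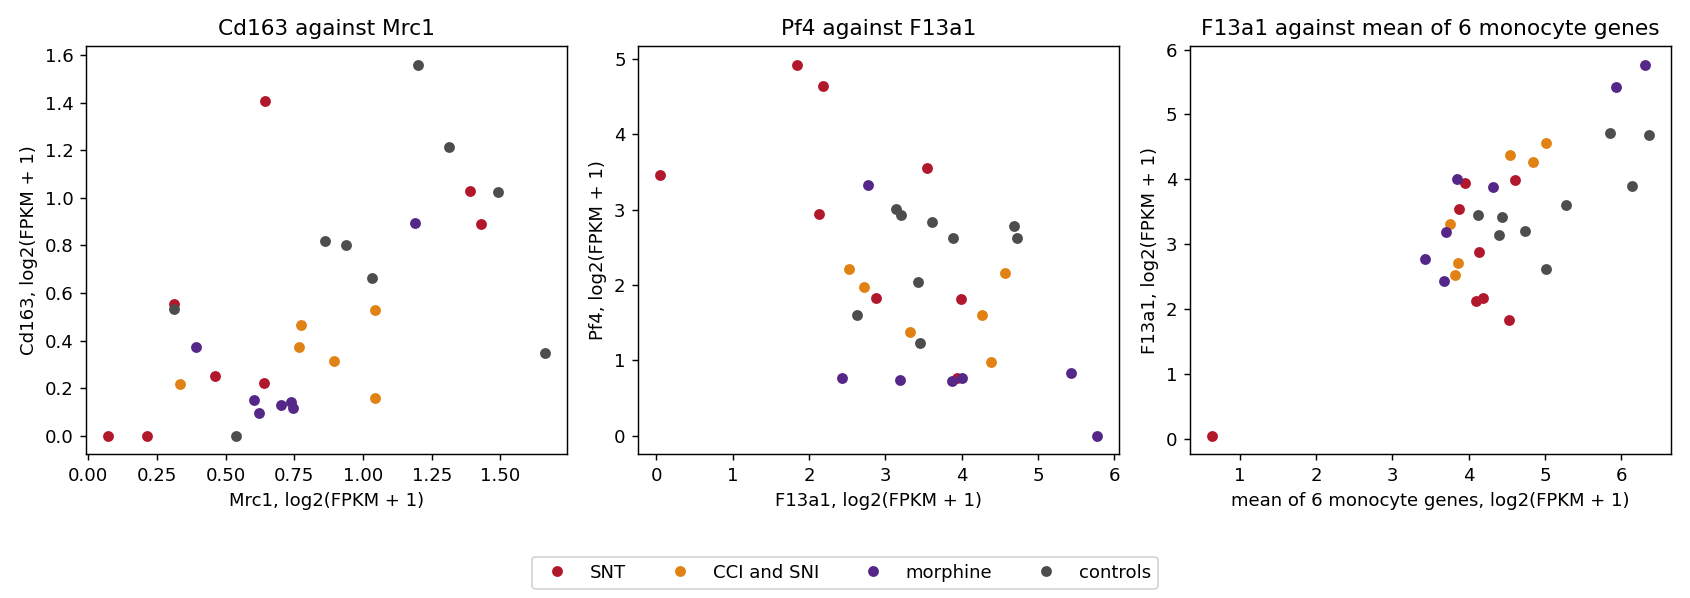
log2(FPKM + 1) in 30 libraries: Cd163 against Mrc1, Pf4 against F13a1, and F13a1 against the mean of 6 monocyte markers. Points are libraries, coloured by kind of group. Cd163 and Mrc1 rise together at r = 0.565, Pf4 and F13a1 run apart at r = -0.534, and F13a1 rises with the monocyte markers at r = 0.787.

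Genes with the most similar pattern were sought among 6681 tested genes that average at least 5 FPKM and are not members, over 30 libraries, as a description. F13a1 had the closest, Emilin2 at r = 0.909, Xdh at 0.893 and Ero1l at 0.889, and Emilin2 and Xdh stayed among its closest 3 after centring the groups, at 0.938 and 0.937. For Pf4 they were Naca at 0.833 and the ribosomal protein genes Rps6 at 0.827 and Rpl10 at 0.825. For Stab1 they were Tbc1d9 at 0.780, Rptor at 0.763 and Pik3r1 at 0.751, for Lyve1 Trappc6b at 0.830, for Cbr2 Krcc1 at 0.752, for Mrc1 Hnrnpc at 0.679 and for Ms4a7 Pik3r1 at 0.535. For the mean of the 8 standardised profiles Rab5b, at 0.706, was among the closest 3, and for Cd163 Rab5b, at 0.689, was too. After centring the groups the closest 3 for Pf4 were Xlr at 0.883, Rnf7 at 0.850 and Iscu at 0.820, so none of those named above. Hnrnpc for Mrc1, Pik3r1 for Ms4a7 and Rab5b for Cd163 were not among the closest 3 either, while Tbc1d9 for Stab1, at 0.809, Trappc6b for Lyve1, at 0.859, and Krcc1 for Cbr2, at 0.707, still were. The Lyve1 matches were not retested without SNT day 7 replicate 1, a library with few genes in which Lyve1 stood at 7.11 FPKM. Within a library, all genes share its depth and number of detected genes.

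A list of 22 other border macrophage genes, 16 of them tested, was read beside the 8. Under fixed morphine 4 of the 16 were called lower and 0 higher, against 4.46% of all tested genes called lower and 18.0% called in either direction. Of the 4, 3 were MHC class II genes, which present peptides to T cells. H2-Eb1 had 4.95, 6.64, 3.67 and 8.84 FPKM in fixed morphine, against 32.5, 22.4, 25.1 and 35.0 FPKM in fixed saline, and differed by -2.12 ± 0.32 on the log2 scale (SE, adjusted p = 0.00499 in limma). H2-Ab1 differed by -1.44 (adjusted p = 0.0194), H2-Aa by -1.37 (adjusted p = 0.0254) and Ms4a6b, a relative of Ms4a7, by -0.81 (adjusted p = 0.0274). In all 4 genes every fixed morphine library was lower than every fixed saline library. Cd74 of the same list was tested and not called, and its groups overlapped. It had 96.3, 106, 68.6 and 124 FPKM in fixed morphine, against 176, 94.2, 94.6 and 152 FPKM in fixed saline. The 2 naive libraries had 6.44 and 6.39 FPKM of H2-Eb1, and 21.8 and 21.2 FPKM of H2-Ab1. For these genes and H2-Aa, both naive libraries lay within the fixed morphine range and under every fixed saline library. For Ms4a6b they had 45.7 and 35.6 FPKM, above every fixed morphine library. The 16 had a median difference of -0.55 with 4 of 16 positive, beside a median of 0.22 over all tested genes, and MHC class II genes are also carried by dendritic cells, whose 6 markers summed to 5.42 to 8.61 FPKM in fixed morphine and 4.26 to 11.995 FPKM in fixed saline. The neutrophil markers named above were lower than in fixed saline in the same comparison, at a median difference of -1.83. As given above, the depths of fixed morphine and fixed saline libraries did not overlap. The part of depth and of these cells in the result was not tested.

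In the other comparisons the 16 gave 2 calls, both for partial injury against transection, where 14.5% of all tested genes were called. Tgfbi, a secreted matrix protein, was higher at 1.11 ± 0.34 (SE, adjusted p = 0.0337 in limma), with a median of 38.2 FPKM in the 6 CCI and SNI libraries, against 21.6 FPKM in the 8 SNT libraries. H2-Eb1 was lower at -1.50 ± 0.48 (adjusted p = 0.0396), with medians of 5.58 FPKM in CCI and SNI libraries and 18.9 FPKM in SNT libraries. The groups overlapped for both genes. Without the 3 libraries with few genes, an alternative chosen after seeing the data, neither was called, at 0.75 (adjusted p = 0.231) for Tgfbi and -1.25 (adjusted p = 0.228) for H2-Eb1. Several genes of the list that mark border macrophages were near absent: Cd209f was listed at 0 in 26 libraries, Cd209g in 27 and Timd4 in 23. Others were not. Dab2 ran from 0.879 FPKM in SNT day 2 replicate 2 to 7.49 FPKM in fixed morphine replicate 3. Mgl2 reached 4.83 FPKM in escalating saline replicate 9, and Clec10a 2.95 FPKM in fixed saline replicate 6. Folr2, a folate receptor, had a median of 0.964 FPKM and a highest of 4.35 FPKM over the 30 libraries.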

How the data were processed

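The deposited FPKM were made by the authors, and the submitters' processing notes name the build mm10, the aligner HISAT2 (2.0.5.1), DESeq2 with no version, the counter featureCounts (1.4.6) and Cufflinks (2.2.1). Which of these made the FPKM is not given in the sources used here. Libraries were made from CD11b-selected cord cells with Smart-Seq2 and Nextera XT, per the labels' protocols. Of 24888 table rows, 826 that share 281 symbols were left out. Genes with at least 1 FPKM in at least 2 of 30 libraries, 11759 of them, were tested on log2(FPKM + 1), computed here from the deposited values, with limma 3.58.1 in R 4.3.3 (trended variance, Benjamini-Hochberg adjustment), and the steps were tested on simulated data. FPKM summed to 298889 to 491729 per library.

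Groups came from the labels. Injury groups were compared with 9 pooled controls (saline and naive), and each morphine regimen with its own saline. The 8 genes were named in every comparison, with the most similar genes that average at least 5 FPKM and up to 4 other border macrophage genes per comparison. One of the most similar genes is not reported here. The members and lists were chosen with earlier results of these data known. The reported fits did not pair libraries by replicate number. Correlations used 100000 permutations. Depth was estimated from the steps of low FPKM values, and fragment numbers from those steps and transcript lengths. The lengths were fitted so that a gene's low values came out as whole fragments. For Stab1 and F13a1 the longest annotated transcript was used. Fragment numbers cover counting error only, and reads without molecular identifiers are not independent molecules. Coordinates are from GENCODE on GRCm38. Python 3.11.15, pandas 2.3.3, numpy 2.4.6 and matplotlib 3.10.9 were used. Alternatives were another pseudocount, other filters, other scalings, library weights, a replicate block, naive controls alone, and leaving out libraries.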

Additional observations from a re-analysis of the deposited data

Results flagged for a closer look

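Of 24 sets of a gene in a group of 4 to 10 libraries, 3 held a library far from the others, where chance gives about 1 in 20 for values that vary freely, a rate that does not apply to values listed at 0. Pf4 was listed at 0 in fixed morphine replicate 4, while the other 3 fixed morphine libraries had 0.658 to 0.708 FPKM. Ms4a7 had 0.379 FPKM in fixed saline replicate 3, and was listed at 0 in the other 3 fixed saline libraries, a value that stands for 0.981 estimated fragments. Cbr2 was listed at 0 in fixed saline replicate 5, while the other 8 control libraries had 2.28 to 9.98 FPKM.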

How the results depend on the processing

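Pf4 under fixed morphine was lower under every alternative run, with adjusted p-values of 0.0103 to 0.456 in limma. It was called in all of them except with a replicate block (-2.63 ± 0.66, adjusted p = 0.456, so 0 of 8 members called) and without fixed saline replicate 6 (-1.85, adjusted p = 0.0520). Between the injury and naive groups, replicate numbers gave correlations of -0.43 to 0.22, 4 of 28 over 0.1. For fixed morphine and fixed saline the values were -0.049 for number 3 and -0.27 for number 4. These are too few to decide whether the libraries of that comparison were paired. The split of all calls under fixed morphine moved with scaling: 1595 higher and 524 lower as deposited, 1039 and 783 with median-ratio scaling, 3247 and 305 with TPM rescaling, and 986 and 826 with quantile normalization. TPM rescaling moved the median of all genes there to 0.45, and Pf4 was at -1.75. For CCI and SNI against SNT the splits were 1297 and 410, 879 and 609, 3084 and 254, and 765 and 659, in the same order.

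Counts of members called that changed were 2 for CCI and SNI against controls with library weights, and 1 each for CCI and SNI against SNT with a filter of 5 FPKM, TPM rescaling, quantile normalization and library weights. Leaving out 1 library in turn gave 0 to 1 at SNT day 1, 0 to 2 at SNT day 7, 0 to 2 for CCI and SNI against SNT, and 0 to 1 for fixed morphine.

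Every difference that changed sign had missed the threshold in the values reported, none passed it after changing sign, and the cause was not tested. With median-ratio scaling, at SNT day 1 Cbr2 was 0.037, and at SNT day 2 Mrc1 was 0.10 and Stab1 0.21, and over SNT Stab1 was 0.016. Quantile normalization gave a change of sign: at SNT day 1 Cbr2 was 0.0070 and Ms4a7 0.060, and at SNT day 2 Mrc1 was 0.12 and Stab1 0.042. At SNT day 4 Mrc1 was 0.027, and at CCI day 2 F13a1 was -0.0084 and Ms4a7 -0.055. At CCI day 7 Ms4a7 was -0.031, and at SNI day 7 Stab1 was 0.034. For CCI and SNI against SNT Mrc1 was -0.24, and under fixed morphine Ms4a7 was -0.034. With naive controls alone, at SNT day 1 Cbr2 was 0.12, and at SNT day 2 Mrc1 was 0.067. At SNT day 4 Mrc1 was 0.090, Pf4 0.18 and Stab1 -0.12, and at CCI day 2 Ms4a7 was -0.30. At CCI day 7 F13a1 was 0.053, Lyve1 0.044, Mrc1 0.024, Ms4a7 -0.30 and Pf4 0.15, and at SNI day 7 F13a1 was 0.11, Ms4a7 -0.16 and Pf4 0.55. Over SNT Ms4a7 was -0.21, and over CCI and SNI F13a1 was 0.19, Ms4a7 -0.26 and Pf4 0.079. The replicate block gave the same values in these comparisons. Without the 3 libraries with few genes, at SNT day 2 Cd163 was 0.26, Mrc1 0.35 and Stab1 0.19, and at SNT day 7 F13a1 was 0.30, Lyve1 -0.51, Pf4 -1.64 and Stab1 0.29, and over SNT Lyve1 was -0.28, Pf4 -0.14 and Stab1 0.14. A pseudocount of 0.1 changed the sign: at SNT day 4 Lyve1 was -0.24 and Mrc1 0.019, and over SNT Lyve1 was -0.17. For CCI and SNI against SNT Ms4a7 was 0.34, and for saline against naive Cd163 was -0.16. TPM rescaling did so: at SNT day 4 Mrc1 was 0.016, and at CCI day 7 F13a1 was 0.041, Mrc1 0.027 and Stab1 0.15. At SNI day 7 F13a1 was 0.082 and Stab1 0.15, and over CCI and SNI F13a1 was 0.17 and Stab1 0.098. For CCI and SNI against SNT Ms4a7 was 0.0026 and Stab1 0.30, and under fixed morphine Stab1 was 0.12. For saline against naive Cd163 was -0.092, F13a1 -0.037 and Mrc1 -0.016. With saline controls alone, at CCI day 7 Stab1 was 0.025, and at SNI day 7 Stab1 was 0.031, and over SNT Stab1 was 0.0045. Library weights did so: over CCI and SNI F13a1 was 0.00076, and under escalating morphine Lyve1 was 0.065, and for the difference of the morphine responses Cbr2 was -0.22, Cd163 -0.50 and Mrc1 -0.21.

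Leaving out 1 library in turn, these ranges crossed 0. At SNT day 1 Cbr2 ran from -1.75 to 1.52. At SNT day 2 Cd163 ran from -0.55 to 0.26, Mrc1 from -0.40 to 0.35 and Stab1 from -0.40 to 0.19. At SNT day 4 Cbr2 ran from -0.15 to 0.47, F13a1 from -0.76 to 0.35, Lyve1 from -0.64 to 0.77, Mrc1 from -0.40 to 0.39 and Stab1 from -0.036 to 0.34. At SNT day 7 F13a1 ran from -1.80 to 0.30, Lyve1 from -0.51 to 2.38, Pf4 from -1.64 to 2.51 and Stab1 from -0.51 to 0.29. At CCI day 2 F13a1 ran from -0.32 to 0.74, Mrc1 from -0.70 to 0.0046, Ms4a7 from -0.060 to 0.18 and Stab1 from -0.58 to 0.21. At CCI day 7 Cbr2 ran from -1.13 to 0.0027, F13a1 from -0.92 to 0.63, Lyve1 from -0.49 to 0.20, Mrc1 from -0.16 to 0.0095, Ms4a7 from -0.010 to 0.13 and Stab1 from -0.19 to 0.086. At SNI day 7 F13a1 ran from -1.11 to 0.93 and Stab1 from -0.16 to 0.051. Over SNT Cbr2 ran from -0.67 to 0.15, Lyve1 from -0.29 to 0.43 and Stab1 from -0.18 to 0.028. Over CCI and SNI F13a1 ran from -0.35 to 0.33 and Stab1 from -0.23 to 0.038. For CCI and SNI against SNT Ms4a7 ran from -0.15 to 0.065 and Stab1 from -0.15 to 0.11. Under escalating morphine F13a1 ran from -1.23 to 0.27 and Lyve1 from -0.68 to 0.32. For the difference of the morphine responses Cbr2 ran from -0.0026 to 0.80, Cd163 from -0.31 to 0.30, Lyve1 from -0.78 to 0.22, Mrc1 from -0.14 to 0.26, Ms4a7 from -0.59 to 0.013 and Pf4 from -1.13 to 0.14. For saline against naive Cd163 ran from -0.11 to 0.20 and Lyve1 from -0.050 to 0.50. A lone library is assumed to vary like the other groups. Low fragment numbers limit Ms4a7, Lyve1 and Cd163 most, with 18, 13 and 5 of 30 libraries under 3 estimated fragments.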
